A study of Homo sapiens with 4 samples.

Results

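The zinc finger genes of chromosome 19 were described in 2 human prostate carcinoma cell lines, 22RV1 and PC3. The members were all protein-coding genes that GENCODE 29 places on chromosome 19 and whose symbol is ZNF followed by a number. The rule used annotation only and no measured value. It gave 249 genes, all of which were among the 60671 Ensembl identifiers of the deposited files. They were 16.9% of the 1470 listed protein-coding genes of this chromosome and 1.25% of the 19903 listed protein-coding genes of all chromosomes. Of the 249, 3 were readthrough genes, which join the exons of neighbouring genes under a hyphenated symbol.

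RNA was sequenced from stable, puromycin-selected 22RV1 and PC3 cells carrying a lentiviral pLKO.1 vector. The vector expressed either a control hairpin (shCON) or 1 hairpin against DDX52, a DEAD-box RNA helicase (shDDX52). All groups therefore shared the vector and the selection, and 1 hairpin stood for each condition. With 1 library for each of the 4 conditions, differences could not be checked against replicates, and p-values were not computed. Values are in TPM, abundances scaled to a fixed total in each library, which correct for transcript length and keep no sequencing depth, so no counting interval could be given.

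Most of these genes encode C2H2 zinc finger proteins, in which tandem fingers, each folded around a zinc ion, bind DNA. Many also carry a KRAB domain, which recruits TRIM28 and, with it, SETDB1 and HP1 proteins to write the repressive mark H3K9me3, often over retrotransposons. The genes arose by repeated tandem duplication and still lie in long arrays on chromosome 19, where several are known to be methylated in carcinomas. DNA methylation, chromatin and gene copy number were not measured in this series.

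The targeted gene and line markers followed the labels. In 22RV1, DDX52 stood at 4.88 TPM under shCON against 1.20 TPM under shDDX52, and in PC3 at 9.20 against 2.07 TPM. FOLH1, which encodes prostate-specific membrane antigen, was 67.9 and 77.4 TPM in the 22RV1 libraries and 0.05 and 0.26 TPM in the PC3 libraries. CAV1, which encodes caveolin, was 0.45 and 0.39 TPM in 22RV1 and 162 and 130 TPM in PC3, shCON first. Not every marker parted the lines as sharply. TMPRSS2, a 22RV1 marker, was 4.82 and 4.35 TPM in 22RV1 and 2.94 and 2.44 TPM in PC3. HOXB13, another, was 89.9 and 104.7 TPM in 22RV1 and 39.9 and 34.1 TPM in PC3. Of 4 markers of blood, endothelial and fibroblast cells (PTPRC, CD3E, PECAM1 and COL1A1), 1 reached 1 TPM in each 22RV1 library, 2 did in PC3 shCON and 1 in PC3 shDDX52. Their summed level was 2.86 to 4.84 TPM in 22RV1 and 9.08 to 13.84 TPM in PC3, and PTPRC and CD3E stayed at or under 0.39 TPM. The share of TPM held by rRNA genes was 1.21% and 0.0872% in 22RV1 and 0.0923% and 3.13% in PC3, shCON first. The part of either in the results below was not tested.

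The members lay in long arrays. When neighbours less than 1 Mb apart were joined, 238 of the 249 members (95.6%) fell into 9 clusters of at least 4 genes, and the other 11 lay in 7 smaller groups. Clusters are named here by their first and last member, and positions refer to GENCODE 29 on GRCh38. The median gap between neighbours was 16.0 kb, and 31 of 248 neighbouring pairs overlapped. From the short-arm end, the clusters were ZNF554 to ZNF77 (5 members, chr19:2819874-2944971), ZNF557 to ZNF846 (16 members, chr19:7069444-9793180) and ZNF653 to ZNF791 (26 members, chr19:11483427-12640098). The next was ZNF101 to ZNF254, with 37 members over 4.46 Mb at chr19:19668796-24129961. It is the array in which ZNF91 and its relatives lie, beside the centromere. It was followed by ZNF302 to ZNF792 (5 members, chr19:34677639-34964049), ZNF565 to ZNF573 (26 members, chr19:36182060-37817300) and ZNF575 to ZNF296 (24 members, chr19:43525497-45076588). The last were ZNF175 to ZNF331 (40 members, chr19:51571298-53580269) and ZNF628 to ZNF446, the most populous with 59 members at chr19:55476332-58481230.

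The promoters of the ZNF101 to ZNF254 cluster are shown first, because it had the most members listed in 22RV1 and near 0 in PC3. The windows run from 250 bases before to 50 bases after a start given by RefSeq on GRCh38.p14, written 5′ to 3′ on the strand of the gene. The first window listed for each symbol was used, and its start can differ from the GENCODE gene start. The ZNF43 window lies inside its GENCODE gene, which spans chr19:21804949-21852125. Capitals mark TCCAATCAGG, which holds the CCAAT pentamer known as the core of the NF-Y site. No other 10-base stretch occurred in more windows of this cluster, and it was picked from them for that reason.
ZNF714 (chr19:21081953-21082252, plus strand): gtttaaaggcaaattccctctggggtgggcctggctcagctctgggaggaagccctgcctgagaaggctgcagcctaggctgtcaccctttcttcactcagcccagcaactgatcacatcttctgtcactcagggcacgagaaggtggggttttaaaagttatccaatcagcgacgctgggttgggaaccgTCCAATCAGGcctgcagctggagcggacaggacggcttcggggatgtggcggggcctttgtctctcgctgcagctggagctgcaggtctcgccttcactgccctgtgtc
ZNF43 (chr19:21836133-21836432, minus strand): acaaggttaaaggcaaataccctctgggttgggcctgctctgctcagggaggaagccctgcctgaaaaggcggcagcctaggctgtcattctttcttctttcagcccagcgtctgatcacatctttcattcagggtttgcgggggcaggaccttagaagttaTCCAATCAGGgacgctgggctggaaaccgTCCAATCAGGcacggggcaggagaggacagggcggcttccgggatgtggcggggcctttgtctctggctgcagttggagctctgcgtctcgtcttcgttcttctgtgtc
ZNF91 (chr19:23395422-23395721, minus strand): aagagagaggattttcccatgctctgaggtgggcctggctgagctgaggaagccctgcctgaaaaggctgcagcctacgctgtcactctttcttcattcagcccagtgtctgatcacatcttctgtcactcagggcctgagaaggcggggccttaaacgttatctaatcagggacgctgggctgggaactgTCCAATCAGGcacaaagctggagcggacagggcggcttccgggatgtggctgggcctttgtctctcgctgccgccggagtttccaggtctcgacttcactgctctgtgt
ZNF675 (chr19:23687163-23687462, minus strand): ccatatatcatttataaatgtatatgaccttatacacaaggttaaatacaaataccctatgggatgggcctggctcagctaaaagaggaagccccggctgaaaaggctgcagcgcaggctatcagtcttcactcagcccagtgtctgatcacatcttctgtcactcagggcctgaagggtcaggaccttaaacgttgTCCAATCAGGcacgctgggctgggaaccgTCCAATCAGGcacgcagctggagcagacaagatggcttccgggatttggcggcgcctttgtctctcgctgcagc
ZNF101 (chr19:19668589-19668888, plus strand): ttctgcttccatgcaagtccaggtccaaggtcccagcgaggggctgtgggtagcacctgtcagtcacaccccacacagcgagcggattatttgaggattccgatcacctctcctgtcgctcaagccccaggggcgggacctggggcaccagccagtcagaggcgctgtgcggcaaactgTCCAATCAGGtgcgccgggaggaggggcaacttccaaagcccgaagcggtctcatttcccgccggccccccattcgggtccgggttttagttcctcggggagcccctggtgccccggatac

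ZNF714, ZNF43 and ZNF91 were listed in 22RV1 and at or near 0 in PC3, whereas ZNF675 and ZNF101, from the same cluster, were above 1 TPM in all 4 libraries. The windows of ZNF714, ZNF43 and ZNF91 were 84.9%, 84.6% and 86.7% identical to that of ZNF675 over 258, 260 and 240 aligned bases. The window of ZNF101 aligned over only 105 bases, at 70.5%. Across the cluster, 28 windows besides that of ZNF675 had a median identity to it of 83.5%. Members at 1 TPM or more in both 22RV1 libraries and under 0.1 TPM in both PC3 libraries are called line-specific below. The cluster held 11 of them, and the 10 with a window had a median identity of 84.2%. The stretch TCCAATCAGG, searched on both strands, was in 26 of the 29 windows of the cluster, in 15 of 25 of ZNF653 to ZNF791 and in 3 of 5 of ZNF554 to ZNF77. It was in 0 windows of the other 6 clusters. Over all 27305 promoter windows of the table it was found in 0.388%. Within the ZNF101 to ZNF254 cluster it was present in all 10 windows of the line-specific genes, in both windows of genes at 1 TPM or more in all 4 libraries, in 2 of 3 windows of genes under 0.1 TPM in all 4 and in 12 of 14 of the rest. Because it was picked for being common in the windows of this cluster, its presence could not separate these classes.

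The members were expressed at low levels. The median over the 249 genes was 1.14 and 0.94 TPM in the 22RV1 libraries and 0.62 and 0.65 TPM in the PC3 libraries, shCON first. For all protein-coding genes the median was 2.35 to 2.85 TPM, and for the 265 ZNF genes on other chromosomes it was 2.19 to 2.71 TPM. The summed TPM of the members was 893, 911, 896 and 798 in these libraries, which is under 0.1% of all TPM in each library. At 10 TPM or more were 17 or 18 members in each library (6.83% to 7.23%), against 32.0% to 33.9% of all protein-coding genes. The family thus differed from the background more at the high end of the scale than in the share that reached 1 TPM.

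At 1 TPM or more were 134 members (53.8%) with shCON and 118 (47.4%) with shDDX52 in 22RV1, and 106 (42.6%) and 109 (43.8%) in PC3. Of all protein-coding genes, 58.0% to 58.6% reached 1 TPM in a library. The cell lines parted at the bottom of the scale. Members listed at exactly 0 numbered 9 and 10 in the 22RV1 libraries but 56 and 66 in the PC3 libraries, shCON first. The share at 0 was thus 3.61% and 4.02% of members in 22RV1 and 22.5% and 26.5% in PC3. For all protein-coding genes it was 21.8% and 23.0% in 22RV1 and 24.3% and 24.5% in PC3. For ZNF genes on other chromosomes it was 8.68% in each 22RV1 library and 14.7% and 14.3% in PC3. The members were thus at 0 less often than either set in 22RV1, and in PC3 about as often as all protein-coding genes and more often than other ZNF genes. A value of 0 says only that the gene was listed at 0, since the depth is unknown. In bulk RNA, a lower level in every cell and expression in fewer cells cannot be told apart.

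**Figure D1:**
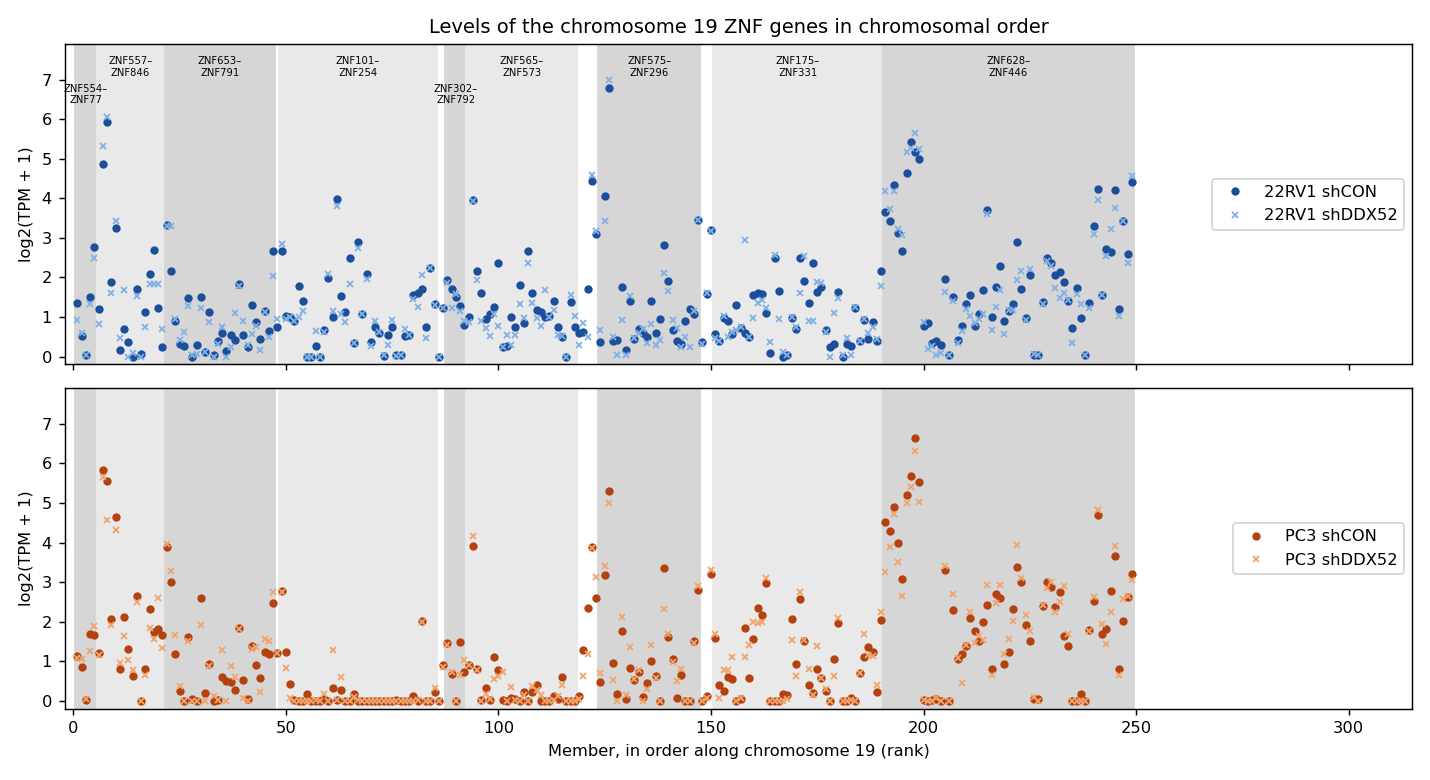
Level of each of the 249 members as log2(TPM + 1) (vertical axis) against its rank along chromosome 19 (horizontal axis), for 22RV1 (upper panel) and PC3 (lower panel), with circles for shCON, crosses for shDDX52 and grey bands for the 9 clusters. In PC3 the ZNF101 to ZNF254 and ZNF565 to ZNF573 bands lie mostly along 0, while in 22RV1 most of their points lie above it.

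The highest members lay in 3 of the clusters. ZNF428 in the ZNF575 to ZNF296 cluster was the highest on average, at 109 and 126 TPM in 22RV1 and 38.5 and 30.8 TPM in PC3, shCON first. Both 22RV1 values were above both PC3 values. ZNF787 was ordered the other way, with 34.9 and 49.3 TPM in 22RV1 and 99.6 and 78.8 TPM in PC3. ZNF414 was 60.2 and 65.6 TPM in 22RV1 and 45.8 and 22.8 TPM in PC3. The next, ZNF358, ZNF581 and ZNF444, ranged from 28.2 to 55.7, from 37.9 to 50.2 and from 30.8 to 45.04 TPM over the 4 libraries. Together these 6 genes held 34.1% and 39.0% of the family's TPM in 22RV1 and 37.4% and 31.9% in PC3, shCON first. In the order of the members, ZNF358 and ZNF414 are consecutive, and so are ZNF581, ZNF787 and ZNF444, but not all of them lie close together. ZNF358 ends at chr19:7521026 and ZNF414 starts at chr19:8509678. ZNF581 ends at chr19:55645622 and ZNF787 starts at chr19:56087366. ZNF787, ZNF581 and ZNF444 lie in the ZNF628 to ZNF446 cluster, which held 39.9% of the family's TPM in 22RV1 shCON and 55.5% in PC3 shCON. ZNF274, a member of the same cluster whose protein is known to bring SETDB1 to the 3′ ends of ZNF genes, was 8.86 and 7.49 TPM in 22RV1 and 4.77 and 5.16 TPM in PC3.

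The clusters differed in how their members compared between the lines. In ZNF101 to ZNF254, 18 of 37 members reached 1 TPM in the shCON library of 22RV1 and 16 in its shDDX52 library, but 3 did in each PC3 library. The 3 were ZNF101, ZNF14 and ZNF675 in PC3 shCON and ZNF101, ZNF430 and ZNF675 in PC3 shDDX52. The summed TPM of the cluster was 66.1 and 59.9 in 22RV1 and 11.7 and 12.0 in PC3. In PC3, 27 of the 37 members stayed under 0.1 TPM in both libraries, 20 of them at 0 in both, against 6 under 0.1 TPM in both 22RV1 libraries. With shCON, 31 of the 37 were higher in 22RV1, 4 were higher in PC3 and 2 were equal. A stretch of 15 neighbours from ZNF429 to ZNF91 was under 0.1 TPM in both PC3 libraries without a break, and 5 of these reached 1 TPM in both 22RV1 libraries. The other 10 were low in both lines or between 0.1 and 1 TPM in 22RV1.

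The ZNF565 to ZNF573 cluster on the long arm showed the same order. In 22RV1, 15 of 26 members reached 1 TPM under shCON and 10 under shDDX52, while in PC3 2 and 1 did. In PC3, 13 of the 26 were under 0.1 TPM in both libraries, against 1 in 22RV1. ZNF146, which encodes a protein made almost only of zinc fingers, was an exception, at 14.4 and 14.3 TPM in 22RV1 and 14 and 17.1 TPM in PC3. It alone held 73.0% of the TPM of this cluster in PC3 shCON, against 28.4% in 22RV1 shCON. The values of the lines also overlapped in lower members, among them ZNF565, ZNF571 and ZNF461. In the small ZNF302 to ZNF792 cluster 4 of 5 members reached 1 TPM in each 22RV1 library and 2 in each PC3 library.

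In the other 6 clusters the counts at 1 TPM did not fall in this way. In ZNF628 to ZNF446, 43 and 42 of 59 members reached 1 TPM in 22RV1 and 44 in each PC3 library. In ZNF175 to ZNF331 the counts were 16 and 15 of 40 in 22RV1 and 15 and 17 in PC3. In ZNF557 to ZNF846 they were 10 and 9 of 16 in 22RV1 and 12 in each PC3 library, and in ZNF653 to ZNF791 they were 9 and 8 of 26 in 22RV1 and 10 and 12 in PC3. In ZNF575 to ZNF296 they were 10 and 7 of 24 and 9 in each PC3 library, and in ZNF554 to ZNF77 they were 3 and 2 of 5 in 22RV1 and 3 and 4 in PC3. At the low end, however, 4 of the 6 had more members under 0.1 TPM in both libraries of PC3 than of 22RV1. The counts were 11 against 4 in ZNF628 to ZNF446, 10 against 3 in ZNF175 to ZNF331, 6 against 3 in ZNF653 to ZNF791 and 4 against 0 in ZNF575 to ZNF296. In ZNF628 to ZNF446, 5 neighbours from ZNF582 to ZNF470 were under 0.1 TPM in both PC3 libraries without a break.

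**Figure D2:**
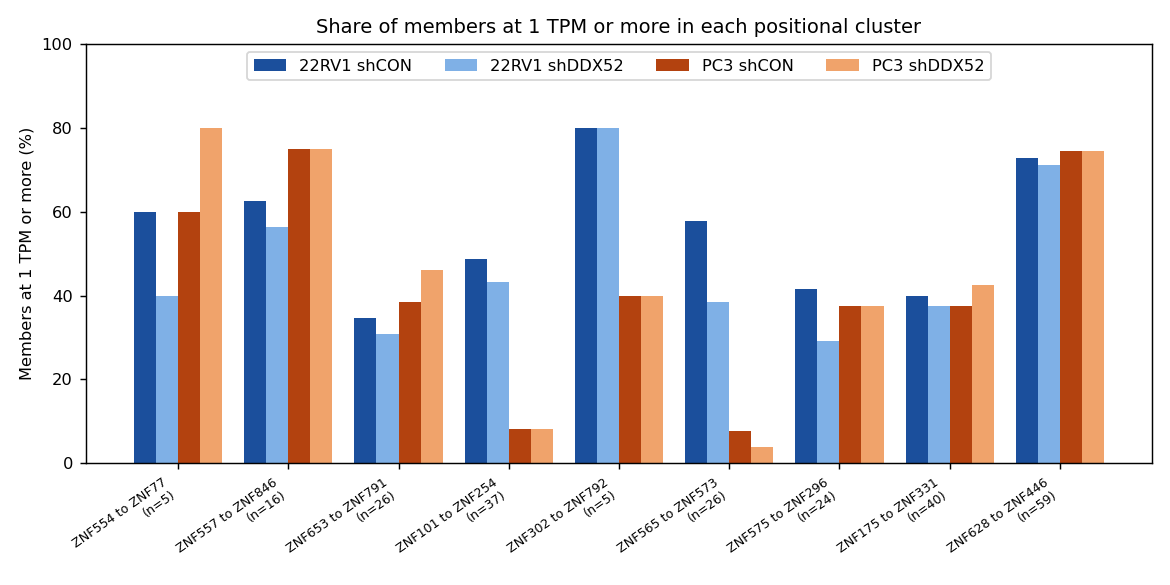
Share of the members of each of the 9 clusters listed at 1 TPM or more (percent, vertical axis), with a bar for each of the 4 libraries and the number of members under each name. In ZNF101 to ZNF254 the counts were 18 and 16 of 37 in 22RV1 and 3 and 3 in PC3, while in ZNF628 to ZNF446 they were 43 and 42 of 59 against 44 and 44.

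Listing in 1 line only was asked directly with a rule on all 4 libraries. A member was called line-specific when it was under 0.1 TPM in both libraries of one line and at least 1 TPM in both libraries of the other. By this rule 20 of 249 members (8.03%) were listed in 22RV1 and near 0 in PC3, against 1.95% of all protein-coding genes, 2.38% of the other protein-coding genes of chromosome 19 and 2.64% of ZNF genes on other chromosomes. In the opposite direction the count was 0 of 249, against 1.59% of all protein-coding genes. Of the members at 1 TPM or more in both 22RV1 libraries, numbering 109, the 20 were 18.3%, while for all protein-coding genes this share was 3.46%. With limits of 0.2 and 0.5 TPM the counts were 39 in the first direction (15.7%, against 3.43% of all protein-coding genes) and 1 in the other. That 1 was ZNF177, at 0 and 0.07 TPM in 22RV1 and 0.54 and 0.72 TPM in PC3, and 86.8% of its 50-base transcript stretches also occurred in transcripts of other genes. Of the rest of the family, 76 members were at 1 TPM or more in all 4 libraries, 16 were under 0.1 TPM in all 4 and 137 lay between these classes.

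The 20 genes were spread unevenly along the chromosome. ZNF101 to ZNF254 held 11 of them, which is 29.7% of its members, and ZNF565 to ZNF573 held 4 (15.4%). ZNF175 to ZNF331 held 2, ZNF302 to ZNF792 and ZNF628 to ZNF446 held 1 each, and ZNF114 lay outside the described clusters. The remaining 4 clusters held 0. In PC3, 14 of the 20 were listed at 0 in both libraries, and the highest value of any of them in a PC3 library was 0.09 TPM. In 22RV1 they ranged from 1.01 to 14.7 TPM.

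ZNF714 (ENSG00000160352) was the highest of these, at 14.7 and 12.9 TPM in 22RV1, shCON first, and 0.02 TPM in each PC3 library. ZNF429 (ENSG00000197013) was 6.38 and 5.74 TPM in 22RV1 and 0 and 0.01 TPM in PC3. ZNF585A (ENSG00000196967), on the long arm, was 5.37 and 4.16 TPM in 22RV1 and listed at 0 in both PC3 libraries. In each of these genes the values of the lines did not overlap, as the rule requires.

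ZNF880 was 4.62 and 4.90 TPM in 22RV1, ZNF726 was 3.70 and 3.73 TPM, and ZNF738 was 4.60 and 2.56 TPM, each with 0 in both PC3 libraries. ZNF85 was 2.93 and 3.21 TPM and ZNF43 was 3.24 and 2.88 TPM in 22RV1, again with 0 in both PC3 libraries. The remaining 12 ranged from 1.01 to 2.53 TPM in 22RV1. Among them were ZNF91, known to repress SVA retrotransposons, at 2.03 and 1.40 TPM in 22RV1 and 0 and 0.02 TPM in PC3, and ZNF93, known to repress older LINE-1 elements, at 2.42 and 1.01 TPM in 22RV1 and 0 in both PC3 libraries. ZNF568, whose mouse counterpart is known to repress a placental transcript of Igf2, was 2.53 and 1.53 TPM in 22RV1 and 0 in both PC3 libraries.

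**Figure D3:**
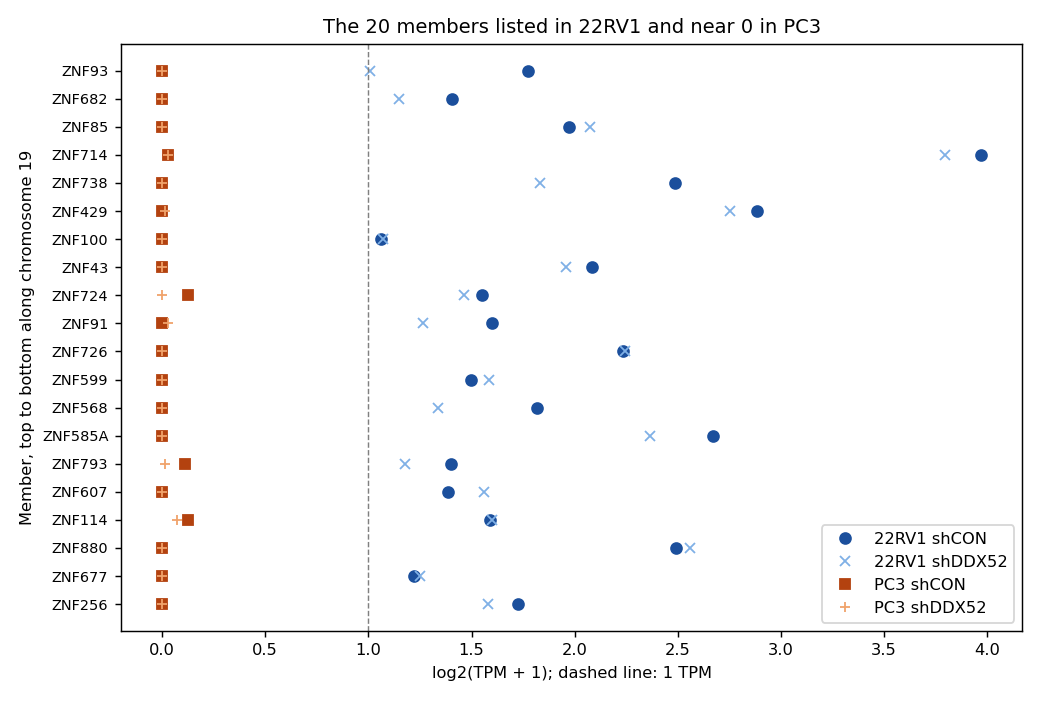
Levels of the 20 line-specific members as log2(TPM + 1) (horizontal axis), 1 row per gene in chromosomal order, with a symbol for each of the 4 libraries and a dashed line at 1 TPM. All PC3 values are at or under 0.09 TPM and all 22RV1 values are at or above 1.01 TPM, as the rule sets, and ZNF714 is the highest.

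Some genes between and beside these members were listed in PC3 and others were not. Of the 14 nearest named protein-coding genes that are not of zinc finger type, 5 were at 1 TPM or more in both PC3 libraries, and 7 were under 0.1 TPM in both. The same 5 were at 1 TPM or more in both 22RV1 libraries. The 7 were low in 22RV1 too, at or under 0.11 TPM. ZNF675 (ENSG00000197372), which lies between ZNF91 and ZNF726, was 2.26 and 3.19 TPM in 22RV1 and 3.06 and 3.01 TPM in PC3. ZNF101 (ENSG00000181896), at the start of the cluster, was 5.35 and 6.23 TPM in 22RV1 and 5.81 and 5.70 TPM in PC3. The values of the lines overlapped in ZNF675 and ZNF101 alike. The nearest such genes were ATP13A1 before the line-specific members of this cluster, at 66.4 and 72.0 TPM in 22RV1 and 51.3 and 44.7 TPM in PC3, and UQCRFS1 after them, at 45.4 and 39.1 TPM in 22RV1 and 46.6 and 37.3 TPM in PC3. UQCRFS1 lies 5260 kb beyond ZNF726. The flanks of the 4 line-specific members in ZNF565 to ZNF573, COX7A1 and WDR87, were at or under 0.02 TPM in all 4 libraries, so they carry no information on this region. Near ZNF880, PPP2R1A, a scaffold subunit of protein phosphatase 2A, was 156 and 162 TPM in 22RV1 and 256 and 202 TPM in PC3, while ERVV-1 on the other side was at or under 0.03 TPM in all 4 libraries.

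Genes of other types inside these clusters were counted as well. Within ZNF101 to ZNF254, 8 and 9 of 166 listed genes that are not protein-coding reached 1 TPM in 22RV1, and 6 and 4 did in PC3, shCON first. Within ZNF565 to ZNF573 these counts were 11 and 11 of 33 in 22RV1 and 3 and 2 in PC3. Some of these genes overlap members, and whether the authors' counting used strand is not given in the sources used here. Of the 20 line-specific members, 14 overlap an annotated gene on the other strand and 6 overlap one on their own strand. For members at 1 TPM or more in all 4 libraries these counts were 38 and 30 of 76. They were 10 and 7 of 16 for members under 0.1 TPM in all 4, and 71 and 62 of 137 for the rest.

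The quantification could share reads between similar members. A member's 50-base transcript stretches that also occur in transcripts of another gene of GENCODE 29 had a median share of 2.65%, and 11 of 249 members exceeded 50%. For the 20 line-specific genes the median was 2.37%, and 17 had 10% or less. The other 3 were ZNF724 at 48.3%, ZNF585A at 17.3% and ZNF607 at 12.6%.

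Of the members past 2-fold between the lines, more were higher in 22RV1 than in PC3. The median of the family lay near 0 with shCON and below 0 with shDDX52. With shDDX52 this imbalance depended on the settings, with 36 against 33 at a pseudocount of 0.1 and 6 against 7 with at least 5 TPM in either library. The log2 difference was log2((TPM in 22RV1 + 1) / (TPM in PC3 + 1)), taken where either of the libraries compared reached 1 TPM, and the pseudocount of 1 understates differences of genes as low as these. With shCON, the median over 153 members was -0.0043, and over all protein-coding genes it was 0.041. At least 2-fold higher in 22RV1 were 41 members (26.8%, against 19.1% of all protein-coding genes), and at least 2-fold higher in PC3 were 12 (7.84%, against 18.9%). With shDDX52, the median over 145 members was -0.15, and over all protein-coding genes it was -0.022. Of these 145, 31 were at least 2-fold higher in 22RV1 (21.4%, against 18.2%) and 17 at least 2-fold higher in PC3 (11.7%, against 20.2%). In ZNF101 to ZNF254 and ZNF565 to ZNF573 nearly all members that entered did so through their 22RV1 value, so no median is given for these clusters. In ZNF628 to ZNF446, where similar numbers reached 1 TPM in the lines, the median was -0.44 with shCON and -0.45 with shDDX52. The sign of the family's median changed with the filter and the scaling, as given in the closing section.

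In both shRNA conditions, 24 of 133 members (18.0%) were at least 2-fold higher in 22RV1, against 14.6% of all protein-coding genes, and 4 (3.01%) at least 2-fold higher in PC3, against 15.6%. The 24 were the 20 line-specific members and ZNF566, ZNF428, ZNF320 and ZNF446. The line-specific rule nearly fixes a 2-fold difference, so those 20 are not a further result. The 4 higher in PC3 were ZNF175, ZNF480, ZNF71 and ZNF776, named here after their values were seen. ZNF480 was 1.14 and 1.33 TPM in 22RV1 and 6.88 and 7.66 TPM in PC3, and ZNF71 was 2.87 and 2.10 TPM in 22RV1 and 8.98 and 9.70 TPM in PC3. ZNF776 was 1.59 and 1.52 TPM in 22RV1 and 4.28 and 4.36 TPM in PC3. ZNF175, known as a repressor of HIV transcription, was 0.48 and 0.39 TPM in 22RV1 and 2 and 2.25 TPM in PC3. None of the 4 was near 0 in 22RV1.

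Of 9 listed members known to be methylated in carcinomas, most were near 0 in PC3 and fewer were in 22RV1. The list of 9 was ZNF132, ZNF154, ZNF331, ZNF382, ZNF471, ZNF582, ZNF667, ZNF671 and ZNF677. In PC3, 7 of the 9 were under 0.1 TPM in both libraries, against 31.3% of all members, and in 22RV1 2 of the 9 were, against 8.43%. In 22RV1, 4 of the 9 reached 1 TPM with shCON and 3 with shDDX52, against 53.8% and 47.4% of all members. In each PC3 library 1 did, against 42.6% and 43.8%. ZNF154 and ZNF671 were at or under 0.07 TPM in all 4 libraries. ZNF677 was 1.33 and 1.38 TPM in 22RV1 and 0 in both PC3 libraries, and ZNF382 was 1.12 and 0.43 TPM in 22RV1 and 0.01 and 0.03 TPM in PC3. ZNF331, an imprinted gene, was at 1 TPM or more in all 4, with 3.47 and 2.45 TPM in 22RV1 and 3.16 and 3.77 TPM in PC3. Methylation itself was not measured.

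The genes through which KRAB zinc finger proteins act were present in both lines. All 25 genes of the cofactor list, among them TRIM28, SETDB1, the HP1 genes, DNA methyltransferases and the HUSH complex, were above 1 TPM in all 4 libraries. TRIM28 was 1079 and 1177 TPM in 22RV1 and 629 and 579 TPM in PC3. SETDB1, the H3K9 methyltransferase of this pathway, was 26.9 and 24.0 TPM in 22RV1 and 14.7 and 17.9 TPM in PC3. TASOR, a HUSH subunit, was ordered the other way, at 2.21 and 2.30 TPM in 22RV1 and 18.6 and 11.6 TPM in PC3. DNMT1, the maintenance DNA methyltransferase, was 122 and 128 TPM in 22RV1 and 110 and 112 TPM in PC3. With shDDX52, 0 of the 25 changed 2-fold in either line, and the largest log2 ratio was 0.57 in 22RV1 and 0.67 in PC3, both of DNMT3B, a de novo DNA methyltransferase. Few protein-coding genes passed 2-fold at all, with 1.34% lower and 0.994% higher in 22RV1 and 1.73% lower and 1.44% higher in PC3, so a count of 0 among 25 is close to the background.

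CpG content of the promoter windows followed the cluster. RefSeq windows were matched to 217 of the 249 members by symbol. The ratio of observed to expected CpG had a median of 0.76 over these members and 0.77 over 14896 protein-coding genes with a window. In ZNF101 to ZNF254 the median was 0.44, and in the other clusters medians lay from 0.61 to 0.87. The 18 line-specific genes with a window had a median of 0.59, the 71 genes at 1 TPM or more in all 4 libraries had 0.82, and the 13 genes under 0.1 TPM in all 4 had 0.52. The low median of the line-specific genes came with their cluster. Those in ZNF101 to ZNF254 had a median of 0.45 against 0.44 for the whole cluster. Those with a window in other clusters ranged from 0.62 in ZNF607 to 0.94 in ZNF677, with ZNF585A at 0.81 and ZNF880 at 0.85. ZNF675, at similar levels in both lines, had 0.49. The GC box GGGCGG, searched on both strands, was in 14 of the 18 line-specific windows (77.8%), in 52 of the 71 windows of genes at 1 TPM or more throughout (73.2%) and in 12 of the 13 windows of genes under 0.1 TPM in all 4 (92.3%). It was in 68.2% of all members' windows, in 59.5% of those of protein-coding genes and in 44.6% of all windows of the table.

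**Figure D4:**
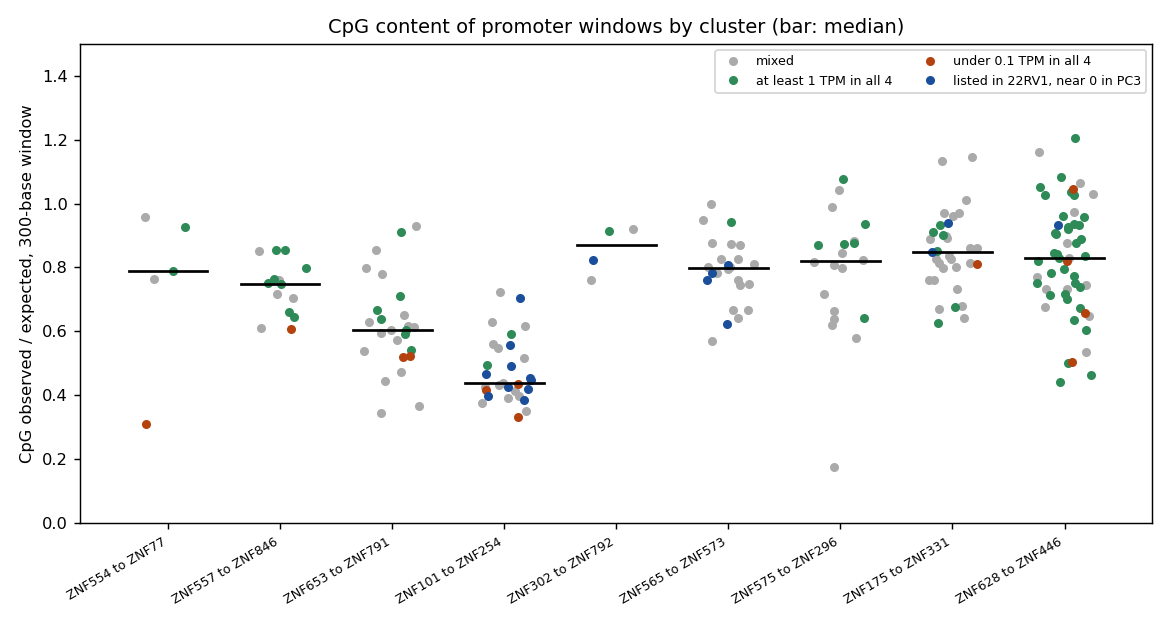
Ratio of observed to expected CpG in the 300-base promoter window (vertical axis) for each member with a window, by cluster (horizontal axis), coloured by expression class, with a bar at the cluster median. The ZNF101 to ZNF254 windows lie lowest, with a median of 0.44, and within that cluster the genes near 0 in PC3 lie among the others.

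With a pseudocount of 1, few members passed 2-fold with the knockdown. Knockdown ratios are given as the log2 of shDDX52 over shCON, with 1 added to each TPM, for members that reached 1 TPM with or without the knockdown. In 22RV1 the median over 143 members was -0.14, against -0.075 over all protein-coding genes. There 92 members were lower and 50 higher, so that 64.3% were lower, against 59.4% of all protein-coding genes. Of the 143, 3 were at least 2-fold lower (2.10%, against 1.34% of all protein-coding genes) and 2 at least 2-fold higher (1.40%, against 0.994%). In PC3 the median over 116 members was -0.012, against -0.033 over all protein-coding genes, and 59 members were lower (50.9%, against 53.3%) and 57 higher. At least 2-fold lower were 3 (2.59%, against 1.73%) and at least 2-fold higher was 1 (0.862%, against 1.44%). These shares are close to the background, and each rests on 1 to 3 genes. With a pseudocount of 0.1 the counts lower and higher were 16 and 6 in 22RV1 and 9 and 6 in PC3, and with at least 5 TPM in either library 0 were lower in 22RV1.

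ZNF780A was the only member at least 2-fold lower in both lines, of 94 members tested in both. In 22RV1 it was 2.29 TPM before and 0.40 TPM after knockdown, and in PC3 4.12 and 1.26 TPM, with log2 ratios of -1.23 and -1.18. In 22RV1, ZNF567 was 4.13 and 0.70 TPM and ZNF28 was 4.11 and 0.86 TPM, shCON first, with log2 ratios of -1.59 and -1.46. In PC3 these genes were low in both libraries, with ZNF567 at 0.71 and 0.54 TPM and ZNF28 at 0.14 and 0.10 TPM. ZNF432 went from 0.50 to 6.76 TPM in 22RV1, a log2 ratio of 2.37, and from 2.58 to 1.17 TPM in PC3. It overlaps 2 annotated genes on its own strand, and ZNF780A, ZNF28 and ZNF627 each overlap 1. ZNF627 went from 3.49 to 8.92 TPM in 22RV1, a log2 ratio of 1.14.

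In PC3, ZNF628 was 22.2 and 8.48 TPM, a log2 ratio of -1.29, and ZNF226 was 9.26 and 4.03 TPM, a log2 ratio of -1.03, shCON first. ZNF587 went from 2.14 to 6.48 TPM there, a log2 ratio of 1.25, and 18.8% of its 50-base transcript stretches occur in transcripts of other genes. No member was past 2-fold in opposite directions in the lines. Of the 20 line-specific genes, 12 were lower and 8 higher with shDDX52 in 22RV1, with a median log2 ratio of -0.13 and a range from -0.77 to 0.18. The rule that chose them used the shDDX52 libraries too, so that they stayed above 1 TPM in 22RV1 and under 0.1 TPM in PC3 was fixed by it.

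**Figure D5:**
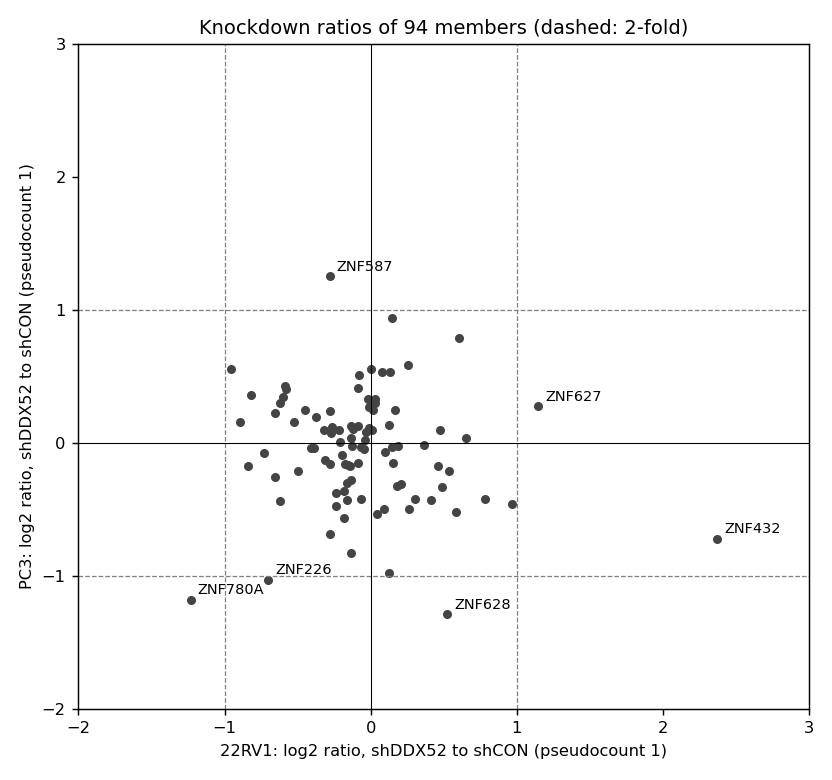
Log2 ratio of shDDX52 to shCON with a pseudocount of 1 in 22RV1 (horizontal axis) and PC3 (vertical axis), 1 point for each of the 94 members with at least 1 TPM in a library of both lines, with dashed lines at 2-fold. Most points lie within 2-fold on both axes, ZNF780A is past 2-fold lower on both, and ZNF432 is the farthest to the right.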

How the data were processed

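RNA-seq libraries of 22RV1 and PC3 cells with shCON or shDDX52, 1 per condition, were used. The authors deposited TPM for each Ensembl gene. The submitters' processing notes list CASAVA, HISAT2 and hg19. The quantification program, annotation release and filters are not given in the sources used here. Of 60671 identifiers, 58453 are in GENCODE 29 on GRCh38, from which types, symbols and positions were taken. Because the deposited files hold no coordinates, positions were not mixed between builds. Depth is unknown, so no test on reads and no p-value was made. Log2 ratios used a pseudocount of 1, and a gene entered where either of the libraries compared reached 1 TPM. Named genes were the 6 highest members, the 8 highest line-specific members, up to 4 members per line and direction past 2-fold with shDDX52, those past 2-fold in both lines, cluster ends and tops, ZNF274, listed genes and neighbours. Others, such as ZNF91, ZNF93, ZNF568 and ZNF177, were added after their values were seen. The members and lists were chosen with earlier results of these data known. RefSeq promoter windows (GRCh38.p14) and GENCODE transcripts gave sequence features. The shared-stretch, motif and identity measures were chosen after seeing the data. Counting functions were tested on simulated data. Alternatives covered pseudocount, filter, scaling, readthrough genes, limits and gap. The scripts ran under Python 3.11.15 with pandas 2.3.3, numpy 2.4.6 and matplotlib 3.10.9. 1 line marker is not reported here.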

Additional observations from a re-analysis of the deposited data

Results flagged for a closer look

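Of the 8 members past 2-fold with the knockdown in at least 1 line, 3 had a ratio of the opposite sign in the other line, and this difference was not tested because each condition had 1 library. The log2 ratio of ZNF432 was 2.37 in 22RV1 and -0.72 in PC3, that of ZNF628 was 0.52 in 22RV1 and -1.29 in PC3, and that of ZNF587 was -0.28 in 22RV1 and 1.25 in PC3. In each case only 1 of the lines was past 2-fold.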

How the results depend on the processing

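For 27 results, 102 alternatives were computed, and 78 stayed within 0.1 (log2) or 1.5 times of the reported value. No paired analysis was possible because replicates are lacking (1 library a condition), and no library could be left out. Stricter limits let fewer genes enter, and for the other changes the cause was not tested. The count of line-specific members moved with limits of 0.2 and 0.5 TPM, to 39 listed in 22RV1 and 1 in PC3. A minimum of 5 TPM left 37 and 32 members in 22RV1 and 40 and 40 in PC3. With a pseudocount of 0.1, members at least 2-fold lower and higher with shDDX52 were 16 and 6 in 22RV1 and 9 and 6 in PC3, and members at least 2-fold higher in PC3 and in 22RV1 were 24 and 48 with shCON and 33 and 36 with shDDX52. With at least 5 TPM in either library, 0 members were 2-fold lower with shDDX52 in 22RV1, where the median turned to 0.0040. Under that filter, 8 were higher in 22RV1 and 6 in PC3 with shCON, with a median of -0.28, and 6 and 7 with shDDX52. With no filter, the median difference between the lines turned to 0.072 with shCON and 0.043 with shDDX52. When TPM were rescaled to nuclear protein-coding genes, the median turned to 0.083 for the knockdown in PC3 and to 0.057 for the lines with shCON, and 2 members were at least 2-fold higher with shDDX52 in PC3. That scaling moved the PC3 knockdown median of all protein-coding genes from -0.033 to 0.087. The signs of the family's medians are thus not stable.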
